A study of Mus musculus with 9 samples.

Results

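Genes that 2 porphyrin nanomaterials moved the same way were sought in 4T1 cells, a mouse mammary carcinoma line. The cells received medium alone (Control), the copper material Cu-TCPP(Fe)-PEG (Cu_TCPP) or the gold-bearing Au/Cu-TCPP(Fe)-PEG (Au_TCPP) for 24 h, with 3 libraries per group. The labels describe Cu_TCPP cells as depleted of glutathione (GSH), and Au_TCPP cells as depleted of GSH and exposed to a glucose oxidase-like activity; both materials share copper, iron and the porphyrin TCPP, and Control cells received none of these. All cells grew in high-glucose DMEM with 10% fetal bovine serum and 1% penicillin and streptomycin, and the labels state no dose. A gene was taken when its scaled level lay on 1 side of all 3 Control libraries in all 6 treated libraries. Of 13915 genes with enough counts to be tested, 4358 met this condition, 2078 with every treated library above Control and 2280 with every treated library below. A further 75 higher and 283 lower genes among the 54532 listed had too few counts for the test. The labels do not state that replicates were separate cultures; the p-values then reflect the spread of these libraries alone, possibly technical.

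Copper and zinc in excess are sensed by the transcription factor MTF1, which drives metallothioneins and zinc exporters. Loss of GSH and other electrophilic stress release NRF2 from its inhibitor KEAP1, and NRF2 then drives enzymes that make GSH, recycle thioredoxin and degrade heme. Damaged proteins free the heat shock factor HSF1 from chaperones, so that chaperone genes rise, and misfolding in the endoplasmic reticulum (ER) induces Hspa5 and its partners. The 4T1 line is known as an aggressive, metastasising model of breast cancer.

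Total counts lay between 15477324 and 17494776 per library. Levels are CPM (counts relative to library size) scaled with TMM factors, which lay between 1.0681 and 1.1184 in Control and Cu_TCPP and between 0.7929 and 0.8884 in Au_TCPP. The Au_TCPP libraries also held a larger share of ribosomal protein counts, 8.75 to 9.64% against 5.01 to 5.57% in the other 6. Weighted by counts, mean gene length was 4549 to 4669 nt in Au_TCPP and 5601 to 5754 nt elsewhere. Au_TCPP replicate 2 stood apart from its own group, with 2.37% mitochondrial counts against 1.09 to 1.47% in the other 8 libraries. Markers of the 4T1 epithelium summed to 2926 to 3184 CPM in Control, 2847 to 3182 with Cu_TCPP and 4407 to 5329 with Au_TCPP, over 8 genes of which 6 were tested. The 14 macrophage markers summed to 40.9 to 44.1 CPM in Control, 27.9 to 31.4 with Cu_TCPP and 79.8 to 98.3 with Au_TCPP, mostly from Cd68, while Adgre1, C1qa, C1qb and Tyrobp had 0 counts in all 9 libraries. The 12 lymphocyte markers summed to 0.742 to 4.89 CPM over the 9 libraries, the 11 fibroblast markers to 16.4 to 40.9 CPM and the 10 endothelial markers to 37.5 to 54.8 CPM, and Cd3d, Col3a1, Lum and Cldn5 had 0 counts.

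The 2 treatment effects were averaged for each gene, as the mean of the log2 fold changes of Cu_TCPP and Au_TCPP against Control. edgeR called 28.0% of all tested genes higher and 30.9% lower in this mean effect at an adjusted p under 0.05. Of the genes with no overlap between the 6 treated libraries and Control, 2035 of 2078 higher and 2236 of 2280 lower genes were called; since the genes were chosen on these same values, that count adds no support. The condition itself held for 14.9% of tested genes in the higher direction and 16.4% in the lower. Conversely, 3923 of the 8194 genes called in the mean effect did not meet it, 2397 of them because only Au_TCPP stood clear of Control and 756 because only Cu_TCPP did. The median mean effect was 0.63 log2 units among the higher genes and -0.80 among the lower, against -0.03 over all genes. A mean effect of at least 1 log2 unit was seen in 401 higher and 800 lower genes, and both materials reached that size in 135 and 386. Of the genes at the edge of the condition, Ptprtos, just inside, had 21.9, 23.2 and 21.7 CPM in Control and 21.5, 21.7 and 20.8 CPM with Cu_TCPP, so that the lowest Control and highest Cu_TCPP values all but touched. Just outside, Pex19 had 78.4, 74.95 and 82.6 CPM in Control, 63.04, 70.5 and 72.9 CPM with Cu_TCPP and 69.97, 66.8 and 74.95 CPM with Au_TCPP, where the highest Au_TCPP value reached the lowest Control value. Hint1 lay just inside on the higher side and Myh10 just outside on the lower side.

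The split of the genes depended on the scale. With library totals alone, which put the median of all genes at -0.43 log2 units for Au_TCPP and -0.06 for Cu_TCPP, 1178 higher and 3232 lower genes met the condition, and the mean effect was called higher for 2224 and lower for 6279 genes against 3900 and 4294 with TMM factors. With offsets that remove each library's length trend these were 2776 and 1765, and 4545 and 3479. Under TMM, RLE, library totals and length offsets alike, 1169 higher and 1657 lower genes kept their side, and none turned to the opposite side. Without Au_TCPP replicate 2, 2063 higher and 2239 lower genes kept theirs.

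Length moved with membership. The median deposited gene length was 3450 nt among the higher genes and 5144 nt among the lower, against 3861 nt over all tested genes. Among tested genes of up to 1000 nt, 11.9% were higher and 4.78% lower in all 6 treated libraries; among those over 12000 nt, 5.77% were higher and 28.1% lower. The median log2 fold change in these bins went from 0.67 to -0.60 with Au_TCPP and stayed at -0.03 with Cu_TCPP. The part of length in the calls of single genes was not tested beyond the offsets above.

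**Figure D1:**
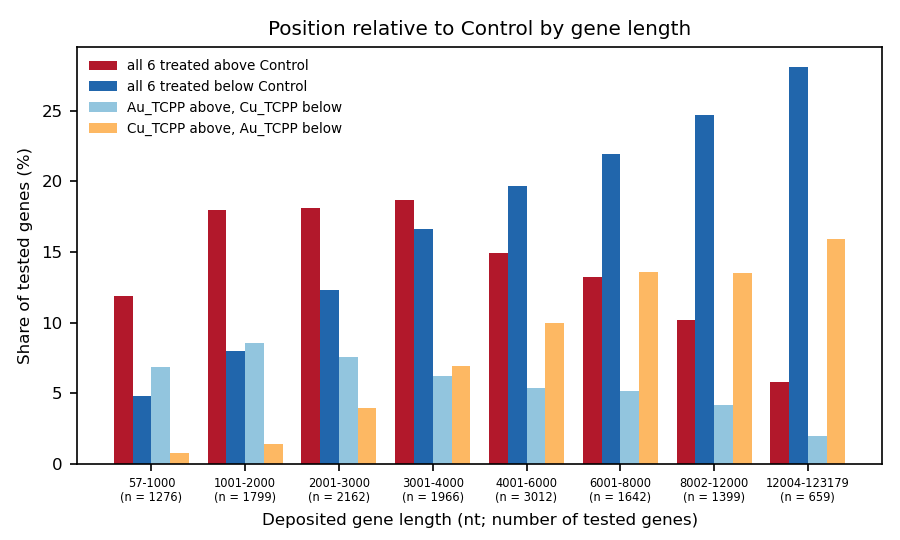
Share of tested genes (y axis, %) by bin of deposited gene length (x axis, nt) whose 6 treated libraries all lay above Control (red) or below it (dark blue), or whose Control libraries lay between the materials (light blue, orange). Lower genes rise from 4.78% in the shortest bin to 28.1% in the longest, and genes with Cu_TCPP above and Au_TCPP below Control are also most frequent among long genes.

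Among the 10 largest shared rises were Hmox1, the chaperone genes Hspa1b, Dnajb1 and Hsph1, the metallothionein gene Mt2, and Sfn, Gadd45g, Prdm1 and Gsta1. The 10 largest shared falls were in the cytochrome P450 gene Cyp1b1, the chemokine gene Ccl20, and Asb2, Galnt15, Scn3a, Vill, Zfr2, Tle2, Lemd1 and Dhrs3. Sfn, which encodes the checkpoint protein 14-3-3 sigma, had 13.8, 15.9 and 15.1 CPM in Control, 52, 61.03 and 58.4 CPM with Cu_TCPP and 535, 206 and 596 CPM with Au_TCPP. Its 3 groups did not overlap, with Au_TCPP replicate 2 well below the other Au_TCPP libraries, and the mean effect was 3.42 (SE 0.36). Gadd45g, a stress sensor that slows the cell cycle, had 4.55, 4.203 and 5.42 CPM in Control, 7.25, 9.28 and 9.08 CPM with Cu_TCPP and 259.5, 181 and 259.8 CPM with Au_TCPP, a far larger step with Au_TCPP than with Cu_TCPP. Prdm1, a transcriptional repressor, was all but silent in Control, with 2, 5 and 3 reads, and had 0.6797, 0.636 and 1.07 CPM with Cu_TCPP and 9.85, 10.7 and 7.57 CPM with Au_TCPP; its fold change therefore rests on very few Control reads. Gsta1, a glutathione S-transferase, had 0.833, 1.56 and 0.931 CPM in Control, 3.795, 5.04 and 3.22 CPM with Cu_TCPP and 17.8, 13.5 and 33.02 CPM with Au_TCPP.

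Cyp1b1 (ENSMUSG00000024087, mm10 chromosome 17, 79706953 to 79715041), a xenobiotic-metabolising P450 and classic target of the aryl hydrocarbon receptor, had 53.01, 52.6 and 55.2 CPM in Control, 1.47, 1.91 and 1.24 CPM with Cu_TCPP and 5.297, 4.51 and 3.94 CPM with Au_TCPP. All treated libraries lay far below Control, with Cu_TCPP the lowest, and the log2 fold change was -5.11 with Cu_TCPP and -3.54 with Au_TCPP. Of 6 tested genes of the aryl hydrocarbon receptor list, 2 were lower and 0 higher in all 6 treated libraries, Cyp1b1 and the receptor gene Ahr; in the mean effect 4 were called lower and 2 higher. The other 4 genes met the condition in neither direction, and are named here after their values were seen: Nqo1, Aldh3a1 and Tiparp had log2 fold changes of 2.20, 1.72 and 1.73 with Au_TCPP and of -0.53, -2.99 and -0.06 with Cu_TCPP, and Arnt of -0.65 and -0.05. Ahr fell from 32.95 ± 1.11 CPM in Control to 16.9 ± 1.57 and 21.9 ± 1.93 CPM (SD, n = 3). Asb2, which encodes a substrate adaptor of an E3 ubiquitin ligase, had 24.2, 25.5 and 24.9 CPM in Control, 0.3398, 0.371 and 0.451 CPM with Cu_TCPP and 2.91, 3.35 and 2.29 CPM with Au_TCPP, the lowest values all being in Cu_TCPP. Galnt15, a mucin-type glycosyltransferase, had 39.02, 44.1 and 42.2 CPM in Control, 2.04, 2.86 and 2.71 CPM with Cu_TCPP and 3.88, 2.98 and 4.34 CPM with Au_TCPP, so that both materials brought it low and Au_TCPP lay just above Cu_TCPP (edgeR adjusted p of that difference = 0.018). Galnt15 was named on these same levels, so that p-value adds no support. Scn3a, a sodium channel subunit, had 24.3, 26.7 and 24.6 CPM in Control, 4.31, 3.55 and 2.37 CPM with Cu_TCPP and 2.69, 4.58 and 1.66 CPM with Au_TCPP, and the ranges of the materials overlapped. Mean effects of the other lower genes of this group were -2.96 for the villin-like gene Vill, -2.87 for Zfr2, -2.81 for the corepressor gene Tle2, -2.69 for Lemd1 and -2.63 for the retinal reductase gene Dhrs3. In Dhrs3, Au_TCPP replicate 2 fell least, with 1.12, 4.29 and 1.103 CPM in the 3 Au_TCPP replicates.

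**Figure D2:**
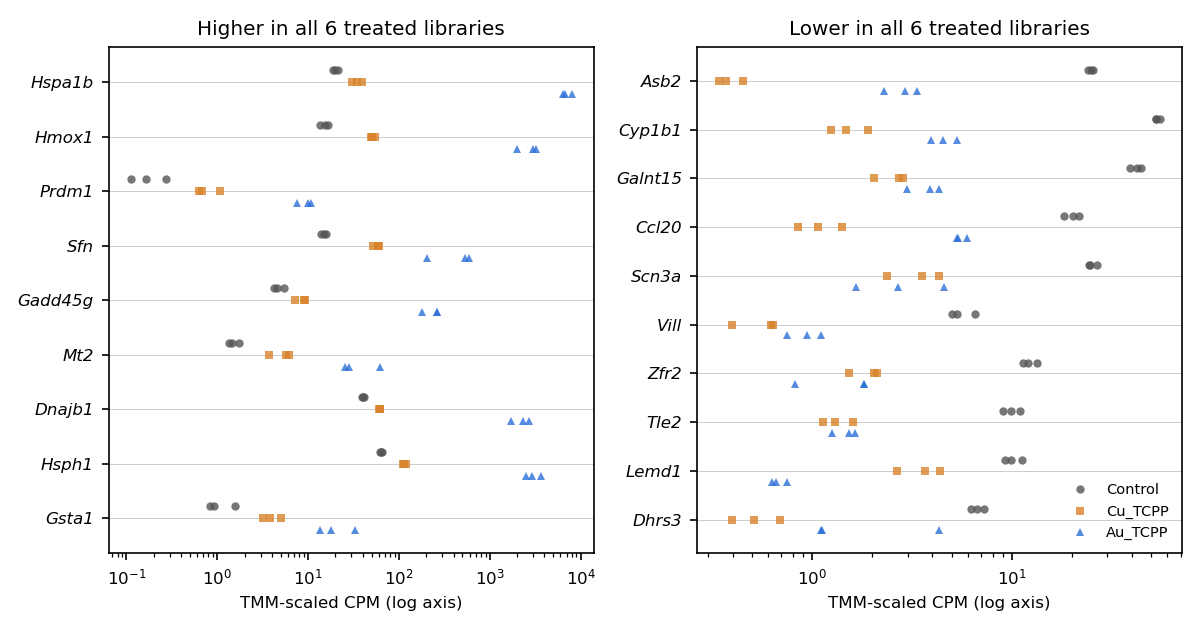
Scaled CPM (x axis, log scale) in each of the 9 libraries for genes with the largest mean effect, 9 higher and 10 lower; grey circles are Control, orange squares Cu_TCPP and blue triangles Au_TCPP. In every row the 6 treated points lie on 1 side of the 3 Control points; Hspa1b, Hmox1, Dnajb1 and Hsph1 are far higher with Au_TCPP than with Cu_TCPP, while the Scn3a and Tle2 ranges of the materials overlap.

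The metallothionein genes Mt1 and Mt2 and a zinc exporter gene rose with both materials. For this and every list that follows, the counts stand beside the shares over all tested genes, 14.9% higher and 16.4% lower in all 6 treated libraries and 28.0% and 30.9% called in the mean effect. Of 10 tested metallothionein and zinc transport genes, 6 were higher in all 6 treated libraries, 0 were lower, 6 were called higher and 1 lower in the mean effect, and the median was 0.39. Mt1 (ENSMUSG00000031765, mm10 chromosome 8, 94179082 to 94180327), which encodes the main metallothionein, had 93.2, 98.9 and 102 CPM in Control, 339, 295 and 369.7 CPM with Cu_TCPP and 1123, 1817 and 1025 CPM with Au_TCPP. Each group lay clear of the next, and Au_TCPP replicate 2 was the highest library. Mt2 had 1.44, 1.35 and 1.75 CPM in Control, 6.12, 3.71 and 5.75 CPM with Cu_TCPP and 28.5, 61.9 and 25.2 CPM with Au_TCPP, the same order from a low Control level. The zinc exporter gene Slc30a1 had 7.66, 9.11 and 7.01 CPM in Control, 27.98, 23.3 and 24.9 CPM with Cu_TCPP and 55.1, 90.4 and 50.8 CPM with Au_TCPP, again with Control lowest and Au_TCPP highest. Mtf1, the metal sensor itself, had a mean effect of 0.45 (SE 0.10) and lost its non-overlap with RLE factors, with library totals and without Au_TCPP replicate 2. In the copper list, 3 of 11 tested genes were higher and 1 lower in all 6 treated libraries (1 and 1 with library totals). Atox1, which carries copper to the secretory pathway, had 42.9, 46.6 and 48.7 CPM in Control, 52.1, 55.04 and 51.9 CPM with Cu_TCPP and 75.1, 78.3 and 78.02 CPM with Au_TCPP, and the endosomal copper transporter gene Slc31a2 had 24.7, 24.6 and 25.5 CPM in Control, 11.4, 13.9 and 13.4 CPM with Cu_TCPP and 15.9, 19.1 and 10.95 CPM with Au_TCPP. Atp7a and Sco1, a copper exporter and a mitochondrial copper chaperone, had mean effects of 0.31 and 0.54, and neither stayed clear of Control with library totals.

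The promoters of the 3 most changed metal genes are shown for the letters TGCNCNC. These are a loose form of the core of the metal response element that MTF1 binds, so a match need not be such a core. Matches on either strand are in capitals. Each is the 250 bases before the RefSeq start (build GRCm38.p6), 5′ to 3′ on the gene's strand.
Mt1 (chr8:94178839-94179088, plus strand): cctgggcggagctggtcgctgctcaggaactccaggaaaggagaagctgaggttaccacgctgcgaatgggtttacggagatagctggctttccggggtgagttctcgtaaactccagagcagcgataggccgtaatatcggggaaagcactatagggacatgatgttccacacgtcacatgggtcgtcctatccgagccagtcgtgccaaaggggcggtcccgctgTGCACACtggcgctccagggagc
Mt2 (chr8:94172368-94172617, plus strand): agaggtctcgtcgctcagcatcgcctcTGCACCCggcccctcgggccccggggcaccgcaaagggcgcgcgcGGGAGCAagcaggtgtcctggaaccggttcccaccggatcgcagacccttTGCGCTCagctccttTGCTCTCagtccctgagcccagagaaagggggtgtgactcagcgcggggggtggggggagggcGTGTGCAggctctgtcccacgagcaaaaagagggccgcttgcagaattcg
Slc30a1 (chr1:191906531-191906780, plus strand): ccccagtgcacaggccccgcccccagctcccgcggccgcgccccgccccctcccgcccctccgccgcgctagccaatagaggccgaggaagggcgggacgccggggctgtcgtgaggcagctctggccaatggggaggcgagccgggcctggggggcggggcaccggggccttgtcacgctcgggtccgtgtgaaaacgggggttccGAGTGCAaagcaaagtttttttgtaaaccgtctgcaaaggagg
In this window Mt2 held 5 matches, the nearest 50 bases before the start, while Mt1 and Slc30a1 held 1 each, 23 and 43 bases before it. The start used was the RefSeq start nearest the deposited gene start, and matches outside the window are not in these counts. A low count therefore does not show that a gene has few such letters near its other starts or farther away. These letters are common: of 9632 tested genes with a RefSeq promoter, 52.2% held a match in this window, with 51.7% among higher and 56.1% among lower genes.

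Of 26 tested NRF2 regulators and targets, 14 were higher and 0 lower in all 6 treated libraries, against 14.9% and 16.4% of all tested genes. In the mean effect 19 were called higher and 4 lower, against 28.0% and 30.9%, and the median was 0.76, with 0.21 for Cu_TCPP and 1.49 for Au_TCPP. By material, Cu_TCPP was called higher for 10 and lower for 6, and Au_TCPP higher for 21 and lower for 1. In 5 of the 26 genes Au_TCPP lay above and Cu_TCPP below Control, against 6.07% of all tested genes. Hmox1 (ENSMUSG00000005413, mm10 chromosome 8, 75093621 to 75100589), which encodes the heme-degrading enzyme HO-1, had 15.2, 16.7 and 13.5 CPM in Control, 54.9, 48.8 and 50.4 CPM with Cu_TCPP and 3023, 1993 and 3262 CPM with Au_TCPP. The log2 fold change was 1.76 (SE 0.16) with Cu_TCPP and 7.51 (SE 0.20) with Au_TCPP. Srxn1, which encodes the sulfiredoxin that repairs peroxiredoxins, had 52.01, 55.7 and 56.4 CPM in Control, 115, 127 and 124 CPM with Cu_TCPP and 626, 316 and 776 CPM with Au_TCPP. Gclm, the modifier subunit of the enzyme that limits GSH synthesis, had 165, 158 and 151 CPM in Control, 342, 323 and 347 CPM with Cu_TCPP and 1320, 769 and 1606 CPM with Au_TCPP, and Txnrd1, which reduces thioredoxin, had 239, 244 and 238 CPM in Control, 476, 482 and 472 CPM with Cu_TCPP and 1283, 885 and 1733 CPM with Au_TCPP. In all 3 genes the Cu_TCPP libraries stood clear of Control and below every Au_TCPP library, and Au_TCPP replicate 2 was the lowest of its group. The cystine transporter gene Slc7a11 showed that pattern in the extreme, with 37.4, 35.4 and 34.6 CPM in Control, 44.5, 38.1 and 44.1 CPM with Cu_TCPP and 136, 46.7 and 211 CPM with Au_TCPP. All 6 treated libraries lay above Control, yet the mean effect of 1.06 (SE 0.43) did not pass (edgeR adjusted p = 0.073). It was 1.25 without Au_TCPP replicate 2, where it passed. With library totals Slc7a11 did not stay clear of Control. Under library totals 9 genes of this list were higher and 2 lower.

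Srxn1 is shown for TGANTCA, the letters shared by AP-1 sites and the core of many antioxidant response elements, over the same window and build.
Srxn1 (chr2:152105274-152105523, plus strand): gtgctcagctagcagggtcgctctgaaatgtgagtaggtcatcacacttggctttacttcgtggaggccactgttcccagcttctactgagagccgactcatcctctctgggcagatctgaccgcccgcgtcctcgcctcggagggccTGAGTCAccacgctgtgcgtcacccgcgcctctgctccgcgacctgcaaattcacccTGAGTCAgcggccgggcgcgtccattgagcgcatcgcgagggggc
It held 2 matches, 45 and 102 bases before the start; 4.45% of all promoters held one, with 4.42% among higher and 4.78% among lower genes. The longer antioxidant element TGACNNNGC was held by 5 of the 21 NRF2 list promoters matched (Abcc4, G6pdx, Gclm, Nfe2l2 and Prdx1), against 12.2% of all promoters. In the other lists the share went from none, as in 0 of 12 in the BCL2 family, to 4 of 9 in the copper list.

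Other thiol, iron and lipoylation genes were mixed. In the glutathione and lipid peroxide list, 3 of 17 tested genes were higher and 1 lower in all 6 treated libraries. Ggct, a gamma-glutamyl cyclotransferase, had 4.22, 3.18 and 3.67 CPM in Control, 5.61, 7.48 and 6.88 CPM with Cu_TCPP and 23.8, 16.8 and 27.5 CPM with Au_TCPP, and Gstp1 had 121, 125 and 131 CPM in Control, 148, 158 and 189.9 CPM with Cu_TCPP and 331, 215 and 346 CPM with Au_TCPP. Both genes had Au_TCPP as the highest group. Aifm2, which encodes the ferroptosis suppressor FSP1, fell with both materials, whose ranges overlapped, with 52.4, 54.7 and 56.1 CPM in Control, 34.6, 38.3 and 39.3 CPM with Cu_TCPP and 34.5, 39.7 and 34.6 CPM with Au_TCPP. Gpx4, the lipid peroxide-reducing glutathione peroxidase, did not belong, since Control lay between 277, 301 and 307 CPM with Cu_TCPP and 706, 866 and 649 CPM with Au_TCPP. In iron handling, 5 of 12 genes were higher and 1 lower. Fth1, the ferritin heavy chain, had 2556, 2620 and 2763 CPM in Control, 2989, 2856 and 3338 CPM with Cu_TCPP and 12560, 9915 and 12900 CPM with Au_TCPP; Cu_TCPP was only slightly above Control and not called (log2 fold change 0.21). The lipoylation list, which holds genes tied to copper-induced death, had 5 of 13 genes higher and 0 lower, with Fdx1 at 18.6 ± 0.601 CPM in Control, 30.1 ± 1.61 with Cu_TCPP and 37.3 ± 3.04 with Au_TCPP (SD, n = 3). Gcsh, which carries the lipoylated arm of the glycine cleavage system, had 55.1 ± 0.249, 105 ± 6.17 and 87.3 ± 0.758 CPM. For the glutathione and iron lists the median changed sign with library totals, under which 3 iron genes were higher and 4 lower and 2 lipoylation genes higher. With length offsets 8 lipoylation genes were higher, and without Au_TCPP replicate 2 the iron list had 5 higher and 2 lower.

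Chaperones rose together and far more with the gold material. Of 21 tested heat shock proteins and co-chaperones, 16 were higher and 0 lower in all 6 treated libraries, and all 21 were called higher in the mean effect, with a median of 1.62 against -0.03 over all genes. By material the medians were 0.62 and 2.95, and edgeR called 20 of the 21 higher and 1 lower in Au_TCPP than in Cu_TCPP, against 34.6% and 31.3% of all tested genes. Hspa1b (ENSMUSG00000090877, mm10 chromosome 17, 34956436 to 34959238), an inducible HSP70, had 18.8, 21.2 and 19.8 CPM in Control, 30.3, 34.9 and 39.3 CPM with Cu_TCPP and 6714, 6396 and 8006 CPM with Au_TCPP. The Cu_TCPP rise was 0.81 log2 units (SE 0.12) and the Au_TCPP rise 8.46 (SE 0.15); reads of Hspa1b cannot be told with certainty from those of its near-identical neighbour Hspa1a. Dnajb1, an HSP40 partner of HSP70, had 39.2, 40.1 and 41.2 CPM in Control, 62.5, 62.6 and 59.9 CPM with Cu_TCPP and 2342, 1727 and 2687 CPM with Au_TCPP, and Hsph1, a nucleotide exchange factor of HSP70, had 65.1, 62.4 and 64.1 CPM in Control, 119.6, 111 and 114 CPM with Cu_TCPP and 2887, 2491 and 3653 CPM with Au_TCPP. Dnaja1, another HSP40, had 91.8, 96.4 and 92.1 CPM in Control, 148, 152 and 134 CPM with Cu_TCPP and 2969, 2202 and 3642 CPM with Au_TCPP. In these genes the 3 Cu_TCPP libraries stood just clear of Control, and every Au_TCPP library stood far above both groups.

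Among promoters of this list, 3 of the 17 matched held the paired heat shock element letters AGAANNTTC (Dnaja1, Fkbp4 and Hspe1), against 2.51% of all promoters, with 2.37% among higher and 1.69% among lower genes. The 2 whose RefSeq start lay nearest the deposited gene start are shown, with the letters in capitals.
Fkbp4 (chr6:128438657-128438906, minus strand): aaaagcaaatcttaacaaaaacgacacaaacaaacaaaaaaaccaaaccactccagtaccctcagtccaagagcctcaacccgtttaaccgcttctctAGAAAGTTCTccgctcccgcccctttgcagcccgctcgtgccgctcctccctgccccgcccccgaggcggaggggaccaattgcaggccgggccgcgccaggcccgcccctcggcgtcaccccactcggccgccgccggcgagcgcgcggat
Hspe1 (chr1:55087898-55088147, plus strand): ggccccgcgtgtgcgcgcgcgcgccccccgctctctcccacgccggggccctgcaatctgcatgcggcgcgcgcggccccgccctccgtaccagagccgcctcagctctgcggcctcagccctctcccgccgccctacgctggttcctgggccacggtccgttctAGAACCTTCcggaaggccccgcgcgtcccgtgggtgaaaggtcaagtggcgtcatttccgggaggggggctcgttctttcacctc
In Fkbp4 matches on both strands overlap.

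ER folding genes followed a milder form of the same order, with 12 of 20 higher and 1 lower in all 6 treated libraries, 14 called higher and 2 lower, and a median of 0.72 (0.28 with Cu_TCPP, 1.10 with Au_TCPP). Hspa5, the ER HSP70 also called BiP, had 932, 940.3 and 951 CPM in Control, 1692, 1621 and 1688 CPM with Cu_TCPP and 9564, 6145 and 10330 CPM with Au_TCPP. Calr, the lectin chaperone calreticulin, had 239.8, 243 and 241 CPM in Control, 422, 433 and 421 CPM with Cu_TCPP and 808, 656 and 739 CPM with Au_TCPP, and the ER-secreted factor gene Manf had 57.9, 59.9 and 66.5 CPM in Control, 97.1, 109 and 93.2 CPM with Cu_TCPP and 261, 185 and 251 CPM with Au_TCPP. Creld2 had 18.7, 20.4 and 20.7 CPM in Control, 30.98, 37.5 and 31.7 CPM with Cu_TCPP and 57.1, 34.1 and 53.7 CPM with Au_TCPP, with Au_TCPP replicate 2 inside the Cu_TCPP range. In the integrated stress response list, 2 of 19 genes were higher and 1 lower, while 6 had Au_TCPP above and Cu_TCPP below Control. Without Au_TCPP replicate 2, 6 of the 19 were higher and 1 lower. Atf4, its central transcription factor, had 347, 332 and 336 CPM in Control, 443, 457 and 447 CPM with Cu_TCPP and 797, 564 and 704 CPM with Au_TCPP, and Sesn2, which restrains mTORC1, had 30.9, 30.3 and 32.1 CPM in Control, 46.7, 47.98 and 43.4 CPM with Cu_TCPP and 175, 148 and 177 CPM with Au_TCPP. Ddit3, which encodes CHOP, did not belong, with 27.2, 30.1 and 30.7 CPM in Control, 9.86, 12.2 and 9.59 CPM with Cu_TCPP and 361, 372 and 367 CPM with Au_TCPP.

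Of 18 tested hypoxia targets, 9 were higher and 0 lower in all 6 treated libraries, against 14.9% and 16.4% of all tested genes. In the mean effect 17 were called higher and 0 lower, against 28.0% and 30.9%, and the median was 0.99, with 0.39 for Cu_TCPP and 1.84 for Au_TCPP. Ak4, a mitochondrial adenylate kinase, had 40.5, 44.6 and 44.3 CPM in Control, 109, 111 and 113 CPM with Cu_TCPP and 136, 167 and 139 CPM with Au_TCPP. Adm, which encodes the vasodilator adrenomedullin, had 3.05, 3.18 and 3.67 CPM in Control, 8.496, 7.64 and 7.898 CPM with Cu_TCPP and 23.6, 35.4 and 15.9 CPM with Au_TCPP, and Higd1a and P4ha2, a respiratory chain factor and a collagen prolyl hydroxylase, had mean effects of 1.93 and 1.86. In glycolysis, 7 of 21 genes were higher and 2 lower (7 and 4 with library totals), and 4 had Au_TCPP above and Cu_TCPP below Control. By material, Cu_TCPP was called higher for 7 and lower for 5 (median -0.01), and Au_TCPP higher for 14 and lower for 2 (median 0.79). Eno1, the enolase, had 1274, 1317 and 1335 CPM in Control, 2012, 2003 and 2167 CPM with Cu_TCPP and 4001, 3301 and 3660 CPM with Au_TCPP, and Pgam1, the step before it, had 477, 494 and 499 CPM in Control, 689, 719 and 778 CPM with Cu_TCPP and 1166, 1247 and 1057 CPM with Au_TCPP. The glucose transporter gene Slc2a1 had 156, 159.5 and 177 CPM in Control, 221, 262 and 248 CPM with Cu_TCPP and 542, 567 and 519 CPM with Au_TCPP. Pfkfb3, which makes the activator of phosphofructokinase, went the opposite way, with 65.4, 71.3 and 70.8 CPM in Control, 19.4, 19.99 and 22.5 CPM with Cu_TCPP and 23.1, 36.3 and 24.8 CPM with Au_TCPP. Txnip (ENSMUSG00000038393, mm10 chromosome 3, 96557957 to 96561883), which binds thioredoxin and limits glucose uptake, had 363, 411 and 370.4 CPM in Control, 44.2, 48.8 and 51.9 CPM with Cu_TCPP and 190.1, 242 and 233 CPM with Au_TCPP; here the copper material gave the deeper fall, and the difference of 2.20 log2 units between the materials (SE 0.11) was called (edgeR adjusted p = 6.3e-10). Txnip was preset with earlier results of these data known, so that call adds no support. In the list of Txnip, arrestin and glucose sensing genes, 2 of 10 tested genes were higher and 2 lower. In the respiratory chain, 4 of 33 nuclear genes were higher and 1 lower (7 and 1 with length offsets, 2 and 2 with library totals), among them Cox5a with a mean effect of 0.61 and Sdha with -0.36. Sterol and fatty acid synthesis had 0 of 26 genes higher and 3 lower, with 10 in which Cu_TCPP lay above and Au_TCPP below Control. Scd1, the stearoyl-CoA desaturase, had 79.3, 86.4 and 88.4 CPM in Control, 70.8, 67.1 and 68.5 CPM with Cu_TCPP and 39.7, 31.2 and 41.7 CPM with Au_TCPP. Without Au_TCPP replicate 2 this list had 4 higher and 3 lower genes.

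Most ribosome assembly genes were higher with both materials, and Cu_TCPP gave the larger median. Of 30 tested genes, 19 were higher and 0 lower in all 6 treated libraries, 22 were called higher and 2 lower, and the median was 0.59, with 0.80 for Cu_TCPP and 0.43 for Au_TCPP. By material, Cu_TCPP was called higher for 25 and lower for 0, and Au_TCPP higher for 19 and lower for 7; in 6 genes Cu_TCPP lay above and Au_TCPP below Control. With library totals 11 were higher and 1 lower in all 6 treated libraries. Bysl, a factor of small-subunit processing, had 17.98, 18.6 and 18.8 CPM in Control, 45.5, 53.98 and 45.8 CPM with Cu_TCPP and 27.9, 25.8 and 31.4 CPM with Au_TCPP, and the log2 ratio of Au_TCPP to Cu_TCPP was -0.77 (edgeR adjusted p = 1e-05). Bysl was named on these same levels, so that p-value adds no support. Nop58, a core protein of box C/D particles, had 129, 121 and 110.1 CPM in Control, 226, 193 and 199.7 CPM with Cu_TCPP and 409.5, 328 and 504 CPM with Au_TCPP, with the opposite order of the materials. Gnl3, the nucleolar GTPase nucleostemin, had 73.4, 68.1 and 65.6 CPM in Control, 131, 122 and 130.4 CPM with Cu_TCPP and 198, 196 and 214 CPM with Au_TCPP. Among DNA replication genes 7 of 30 were higher and 2 lower; 16 were called higher and 3 lower, against 8 and 10 with library totals. The higher genes became 11 without Au_TCPP replicate 2, 12 with length offsets and 4 with library totals. Pcna, the polymerase clamp, had 239, 230.2 and 239 CPM in Control, 309, 324 and 331 CPM with Cu_TCPP and 678, 532 and 657 CPM with Au_TCPP, and Orc2, a subunit of the origin recognition complex, had 28.4, 26.02 and 28.4 CPM in Control, 56.5, 47.6 and 54.3 CPM with Cu_TCPP and 52.1, 45.2 and 56.9 CPM with Au_TCPP. Ccne2, which encodes cyclin E2, had 10.4 ± 1.37 CPM in Control, 23.9 ± 2.56 with Cu_TCPP and 22.1 ± 3.42 with Au_TCPP (SD, n = 3). None of 24 mitotic genes was higher and 3 were lower, with 1 called higher and 17 lower in the mean effect; 8 had Cu_TCPP above and Au_TCPP below Control. In this list 2 genes were higher without Au_TCPP replicate 2, and 2 with length offsets. Top2a had 1595, 1609 and 1499 CPM in Control, 1443, 1319 and 1411 CPM with Cu_TCPP and 899.5, 615 and 868 CPM with Au_TCPP, a fall that was small with Cu_TCPP and not called there, and it lost its place with length offsets.

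Genes of arrest and death lay on both sides, in several lists near the shares of all tested genes (14.9% higher, 16.4% lower). In the p53 and CDK inhibitor list, 6 of 20 genes were higher and 3 lower in all 6 treated libraries (4 and 4 with library totals). Cdkn1a, which encodes the inhibitor p21, had 18.8, 18.6 and 17.1 CPM in Control, 29.2, 36.9 and 31.5 CPM with Cu_TCPP and 377, 243 and 397 CPM with Au_TCPP. Aen, a p53-induced nuclease, had 8.83, 10.6 and 10.9 CPM in Control, 41.4, 40.2 and 36.6 CPM with Cu_TCPP and 28.9, 30.9 and 34.4 CPM with Au_TCPP, and was 1 of 3 genes of this list called lower in Au_TCPP than in Cu_TCPP. Plk3, a stress-activated kinase, had 45.5, 40.1 and 42.1 CPM in Control, 74.9, 86.7 and 84.8 CPM with Cu_TCPP and 401, 243 and 464 CPM with Au_TCPP. In the BCL2 family 0 of 13 genes were higher and 4 lower. Bmf, a BH3-only sensor, had 18.4, 17.6 and 20.4 CPM in Control, 2.38, 3.45 and 3.55 CPM with Cu_TCPP and 2.69, 5.16 and 2.13 CPM with Au_TCPP, and the ranges of the materials overlapped. Bcl2 had 23.5, 27.6 and 27.98 CPM in Control, 20.8, 18.6 and 21.4 CPM with Cu_TCPP and 7.16, 9.24 and 10.01 CPM with Au_TCPP, Bbc3, which encodes PUMA, had a mean effect of -0.70, and Bid -0.63. Among death receptors and caspases 5 of 24 genes were higher and 4 lower, a split close to that of all genes, which became 3 and 6 with library totals and 7 and 2 with length offsets. Casp8 had 54.95, 52.5 and 49.8 CPM in Control, 64.8, 66.9 and 67.4 CPM with Cu_TCPP and 93.3, 84.3 and 85.1 CPM with Au_TCPP, the necroptosis effector gene Mlkl had 54.5, 53.7 and 54.6 CPM in Control, 72.3, 70.6 and 69.1 CPM with Cu_TCPP and 107, 82.6 and 122 CPM with Au_TCPP, and the pore-forming Gsdme had a mean effect of -0.72.

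Immediate early genes rose mainly with the gold material. Of 22 tested AP-1 and immediate early genes, 9 were higher and 2 lower in all 6 treated libraries, 17 were called higher and 2 lower, and the median was 0.71. By material, Cu_TCPP was called higher for 7 and lower for 7 (median -0.14) and Au_TCPP higher for 18 and lower for 1 (median 1.77), and edgeR called 19 of the 22 higher in Au_TCPP than in Cu_TCPP. A further 7 had Au_TCPP above and Cu_TCPP below Control. Fosl1, which encodes the AP-1 subunit FRA1, had 89.7, 80.6 and 88.6 CPM in Control, 399, 454 and 406 CPM with Cu_TCPP and 963, 612 and 965 CPM with Au_TCPP. Jun had 48.8, 43.9 and 49.01 CPM in Control, 66.3, 69.7 and 65.1 CPM with Cu_TCPP and 843, 836 and 824 CPM with Au_TCPP, and Fosb had 10.6, 9.38 and 10.6 CPM in Control, 21.6, 25.6 and 19.5 CPM with Cu_TCPP and 171, 114 and 167 CPM with Au_TCPP. In Jun the log2 fold change was 0.51 with Cu_TCPP and 4.14 with Au_TCPP. Klf2 fell, from 2.78, 3.66 and 2.902 CPM in Control to 0.793, 1.27 and 0.7898 CPM with Cu_TCPP and 1.04, 0.8 and 0.394 CPM with Au_TCPP. In the list of DUSP phosphatase and Sprouty genes, 3 of 16 tested genes were higher and 1 lower in all 6 treated libraries (5 and 1 with length offsets). A further 5 had Au_TCPP above and Cu_TCPP below Control. Of the phosphatases that restrain MAP kinases, Dusp5 had 32.1, 30.7 and 37.8 CPM in Control, 82.1, 93.4 and 89.9 CPM with Cu_TCPP and 474, 317 and 492 CPM with Au_TCPP, and Dusp14 and Dusp2 had mean effects of 1.35 and 2.12. Among 9 tested EGFR family receptor and ligand genes, 3 were higher and 1 lower in all 6 treated libraries. The ligand gene Hbegf had 70.6, 70.3 and 74.2 CPM in Control, 139.6, 141 and 142 CPM with Cu_TCPP and 518, 313 and 444 CPM with Au_TCPP, while the receptor gene Erbb3 had 62.7, 66.3 and 65.9 CPM in Control, 25.5, 29.9 and 25.7 CPM with Cu_TCPP and 16.6, 24.5 and 17.1 CPM with Au_TCPP. Areg, another ligand, had 17.4, 16.8 and 16.6 CPM in Control, 20.9, 24.4 and 22.3 CPM with Cu_TCPP and 178, 65.5 and 182 CPM with Au_TCPP; its rise with Cu_TCPP was not called. The circadian list held 4 higher and 6 lower genes of 17. Nr1d1, which encodes the repressor REV-ERB alpha, had 35.4, 33.8 and 32.6 CPM in Control, 82.1, 91.9 and 99.6 CPM with Cu_TCPP and 194, 141 and 212 CPM with Au_TCPP.

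Several chemokine and innate receptor genes fell with both materials. None of 11 tested chemokine genes was higher and 4 were lower in all 6 treated libraries, with 2 called higher and 5 lower and a median of -0.65. By material, Cu_TCPP was called higher for 0 and lower for 9 (median -1.20) and Au_TCPP higher for 4 and lower for 4 (median 0.23). Ccl20, the ligand of CCR6, had 21.6, 18.2 and 20.2 CPM in Control, 1.42, 0.848 and 1.07 CPM with Cu_TCPP and 5.97, 5.31 and 5.36 CPM with Au_TCPP. Cx3cl1, the membrane-bound fractalkine, had 138, 137 and 152 CPM in Control, 35.9, 40.6 and 40.5 CPM with Cu_TCPP and 28.4, 33.96 and 26.8 CPM with Au_TCPP. Cxcl5, a neutrophil chemokine, had 631, 609 and 568 CPM in Control, 188, 148 and 168 CPM with Cu_TCPP and 103, 239.6 and 84.4 CPM with Au_TCPP, and Cxcl1 had 296, 284 and 299 CPM in Control, 164, 168 and 160.2 CPM with Cu_TCPP and 184, 284 and 171 CPM with Au_TCPP. In Cxcl5 and Cxcl1 Au_TCPP replicate 2 was the highest library of its group. Among NF-kB genes 8 of 20 were lower and 3 higher, which became 4 lower and 5 higher with length offsets. Nfkbia, which encodes the NF-kB inhibitor alpha, had 192, 198 and 199 CPM in Control, 137, 144 and 149.7 CPM with Cu_TCPP and 80.5, 122 and 72.6 CPM with Au_TCPP, and Ikbke, a kinase of the pathway, had 167, 159 and 152 CPM in Control, 111, 119 and 111 CPM with Cu_TCPP and 58.9, 44.3 and 60.1 CPM with Au_TCPP. Of 27 nucleic acid sensor, STAT and IRF genes, 3 were higher and 6 lower, near the 14.9% and 16.4% of all tested genes. With library totals 10 were lower. By material, Cu_TCPP was called higher for 2 and lower for 18 (median -0.66), and Au_TCPP higher for 11 and lower for 7 (median 0.29). A further 6 had Au_TCPP above and Cu_TCPP below Control. The receptor genes Tlr2 and Tlr4 had mean effects of -1.15 and -1.22. Tlr4 had 52.96, 52.5 and 48.8 CPM in Control, 20.9, 17.8 and 21.7 CPM with Cu_TCPP and 22.5, 26.9 and 23.1 CPM with Au_TCPP. The kinase gene Tyk2 had 115, 119.5 and 125 CPM in Control, 64.3, 72.4 and 67.6 CPM with Cu_TCPP and 25.7, 38.3 and 24.8 CPM with Au_TCPP, and the cytokine inhibitor gene Socs1 rose by 1.46. Of genes of MHC class I presentation, 0 of 18 were higher and 2 lower; Nlrc5, their transactivator, had 37.6, 33.2 and 35.8 CPM in Control, 17.9, 18.03 and 17.6 CPM with Cu_TCPP and 13.8, 16.8 and 13.9 CPM with Au_TCPP. In 8 of these 18 genes of MHC class I presentation, Au_TCPP lay above and Cu_TCPP below Control. By material, Cu_TCPP was called higher for 0 and lower for 14 (median -0.83), and Au_TCPP higher for 9 and lower for 1 (median 0.44). Without Au_TCPP replicate 2, 7 of these 18 genes were lower in all treated libraries. Of 14 tested colony-stimulating factor and interleukin genes, 0 were higher and 3 lower, with 5 called higher and 6 lower in the mean effect. With library totals or with length offsets 5 were lower. Csf1, the macrophage growth factor, had 182, 184 and 190.4 CPM in Control, 138, 146 and 135 CPM with Cu_TCPP and 129.7, 125 and 134 CPM with Au_TCPP, and Il1b had 1.998, 3.45 and 2.3 CPM in Control, 0.793, 0.954 and 0.677 CPM with Cu_TCPP and 0.298, 0.727 and 0.394 CPM with Au_TCPP. All libraries came from the 4T1 line. The summed macrophage markers, mostly Cd68, moved the other way with Au_TCPP (given above), and the part of such markers in these falls was not tested.

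Collagen, laminin and integrin genes were more often lower than higher, while other matrix and junction lists were split. Of 23 tested collagens, laminins and integrins, 12 were lower and 4 higher in all 6 treated libraries, 13 were called lower and 6 higher, and the median was -0.65, with -0.36 for Cu_TCPP and -0.73 for Au_TCPP. Lama5, a laminin chain of the basement membrane, had 2096, 2104 and 2176 CPM in Control, 1076, 1192 and 1162 CPM with Cu_TCPP and 452, 622 and 648 CPM with Au_TCPP. Itgb4, the hemidesmosome integrin, had 127, 124 and 128 CPM in Control, 46.6, 58.9 and 51.6 CPM with Cu_TCPP and 39.2, 36 and 40.3 CPM with Au_TCPP, and Col6a1 had 12.3, 10.9 and 12.3 CPM in Control, 2.44, 3.45 and 3.33 CPM with Cu_TCPP and 4.77, 4.44 and 4.73 CPM with Au_TCPP. Thbs1 (ENSMUSG00000040152, mm10 chromosome 2, 118111876 to 118127133), which encodes the matrix protein thrombospondin, had 608, 587 and 595 CPM in Control, 119, 116 and 121 CPM with Cu_TCPP and 67.3, 115 and 70.3 CPM with Au_TCPP. Pdgfra, listed as a fibroblast marker, also fell, from 34.95 ± 2.56 CPM in Control to 17.1 ± 1.63 with Cu_TCPP and 27.9 ± 3.02 with Au_TCPP (SD, n = 3). It lost its place with length offsets. All libraries came from the 4T1 line, and the fibroblast markers Col3a1, Lum, Pdgfrb and Thy1 had 0 counts in all 9 libraries. The part of such markers in these falls was not tested. Fewer cells that express a gene and less RNA per cell cannot be told apart in bulk libraries. Matrix proteases and their inhibitors split, with 6 higher and 5 lower of 20, and 4 higher and 3 lower of 16 YAP and TGF-beta responsive matrix genes. Plaur, the urokinase receptor, had 63.3, 62.6 and 72.3 CPM in Control, 122, 147 and 126 CPM with Cu_TCPP and 665, 336 and 726 CPM with Au_TCPP, and Adamts1 had 28.03, 25.1 and 25.9 CPM in Control, 55.5, 59.01 and 57.3 CPM with Cu_TCPP and 205, 253 and 222 CPM with Au_TCPP. Serpinb2, an inhibitor of urokinase, had 6, 0 and 0 reads in Control and 65, 55 and 41 reads with Cu_TCPP, against 26, 22 and 27 with Au_TCPP, so its fold change has no stable base. Of 22 keratin and junction genes, 3 were higher and 5 lower. The junction genes Jup and Dsg2, of plakoglobin and a desmosomal cadherin, had mean effects of -0.78 and -0.61, while Ovol1 and Snai1, an epithelial and a mesenchymal regulator, rose by 2.06 and 1.22. The epithelial keratin gene Krt8 had 821, 832 and 919.8 CPM in Control, 1080, 1236 and 1194 CPM with Cu_TCPP and 1549, 1225 and 1381 CPM with Au_TCPP. Of 31 tested lysosome and autophagy genes, 3 were higher and 5 lower in all 6 treated libraries, and the median was 0.01. A further 10 had Au_TCPP above and Cu_TCPP below Control. The split was 1 and 7 with library totals, 6 and 3 with length offsets and 3 and 9 without Au_TCPP replicate 2. Tfeb, the master regulator of lysosomal genes, had 13.5, 13.2 and 13.2 CPM in Control, 5.78, 7.53 and 6.15 CPM with Cu_TCPP and 4.85, 7.27 and 7.01 CPM with Au_TCPP, Mitf had a mean effect of -0.83 and the kinase gene Ulk1 -0.74, while Atg5 rose by 0.94.

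**Figure D3:**
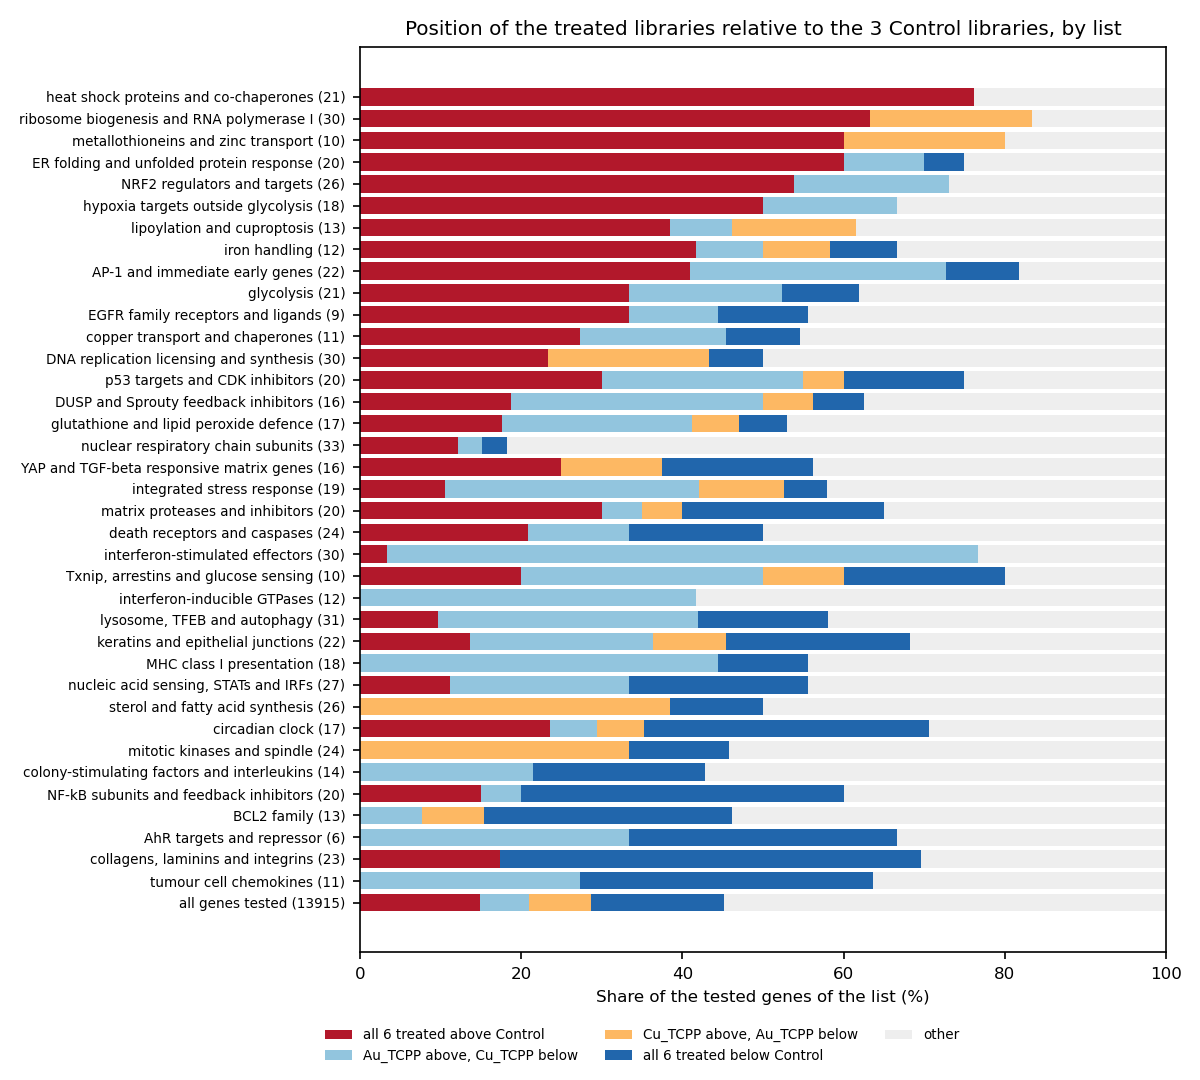
Share of the tested genes of each list (x axis, %; number tested in brackets) with all 6 treated libraries above Control (red) or below it (dark blue), or with Control between the materials (light blue, Au_TCPP above; orange, Cu_TCPP above); grey is the rest, and the lowest bar holds all 13915 tested genes. Heat shock genes have the largest red share, 12 of 23 collagens, laminins and integrins are dark blue, and 22 of 30 interferon-stimulated effectors are light blue.

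Au_TCPP was then set against Cu_TCPP for the shared genes, to describe how far the size of the response differed. The genes were chosen on these same Cu_TCPP and Au_TCPP levels, so the shares are a description and support nothing. edgeR called 34.6% of all tested genes higher and 31.3% lower in Au_TCPP, and 34.1% were not called. Among the shared higher genes, 1179 (56.7%) were called higher and 123 (5.92%) lower in Au_TCPP than in Cu_TCPP, and 776 (37.3%) were not called. Among the shared lower genes, 1050 (46.1%) were called lower, 218 (9.56%) higher and 1012 (44.4%) not. With library totals alone, 544 higher and 1889 lower genes were farther from Control with Au_TCPP. Whether differences were more or less frequent than over all tested genes cannot be read from these shares. The condition leaves out genes with Control between the materials, where edgeR called 1074 of 1075 and 843 of 844. The effect of each material against Control is given side by side only, as both use the same Control libraries: Cu_TCPP was called higher for 19.2% and lower for 21.2% of tested genes, and Au_TCPP for 34.4% and 34.7%. Among the shared higher genes the median was 0.44 log2 units with Cu_TCPP and 0.81 with Au_TCPP, and among the lower ones -0.56 and -0.98.

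**Figure D4:**
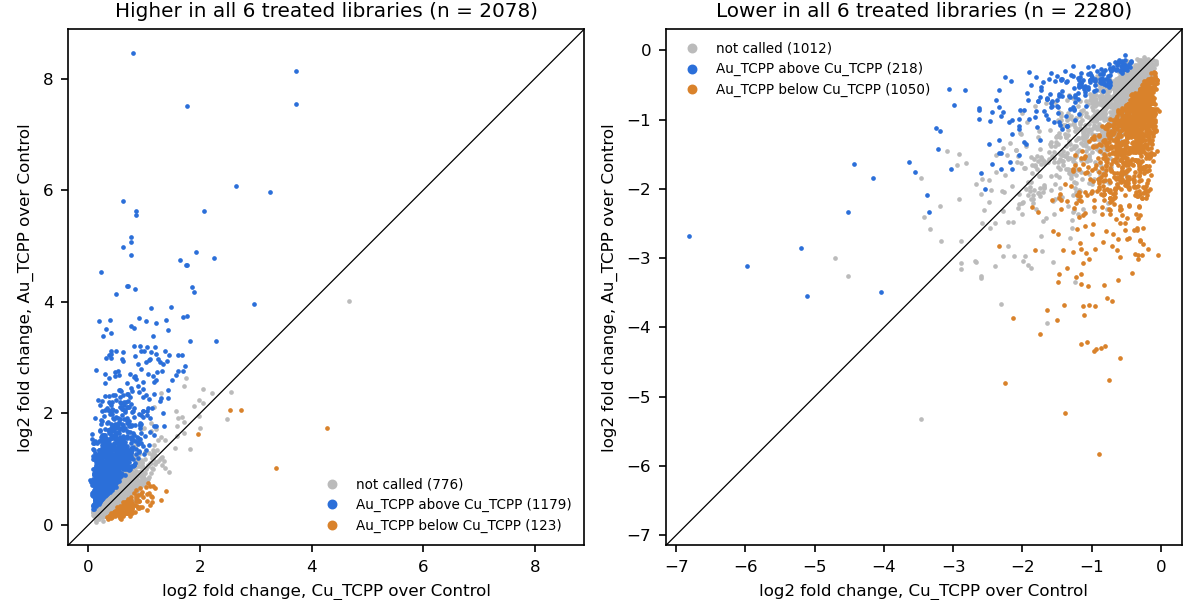
log2 fold change against Control with Cu_TCPP (x axis) and Au_TCPP (y axis) for the 2078 higher (left) and 2280 lower genes (right), coloured by the call of Au_TCPP against Cu_TCPP; the line marks equal effects, and both axes share the Control libraries. Blue points (1179) outnumber orange (123) on the left, and orange (1050) outnumber blue (218) on the right.

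The genes with the widest differences were picked for them, so no test is given. They were chaperones, heme oxygenase and Gadd45g on the higher side. Hspa1b was higher in Au_TCPP than in Cu_TCPP by 7.66 log2 units (SE 0.14), Hmox1 by 5.75, Dnajb1 by 5.19, Gadd45g by 4.77 and Hsph1 by 4.71. Nppb, which encodes a natriuretic peptide, had 2.72, 2.86 and 2.79 CPM in Control, 3.57, 5.14 and 5.53 CPM with Cu_TCPP and 122, 46.5 and 132 CPM with Au_TCPP, with 1 Au_TCPP library far below the others. Among shared lower genes, Asb2 differed by 2.86, with the lower level in Cu_TCPP. In Espl1, Tbc1d16, Apc2 and Zfhx2 the level was much lower with Au_TCPP. Espl1, which encodes separase, had 173, 169 and 174 CPM in Control, 167, 168 and 165 CPM with Cu_TCPP and 23.4, 20.2 and 22.8 CPM with Au_TCPP, so that its Cu_TCPP libraries stood barely below Control; this non-overlap was lost with RLE factors, with length offsets and without Au_TCPP replicate 2. Tbc1d16, which acts on Rab GTPases, had 50.3, 52.8 and 55.8 CPM in Control, 40.3, 47.1 and 44.1 CPM with Cu_TCPP and 5.97, 8.29 and 6.07 CPM with Au_TCPP and lost its place with length offsets. Apc2 and Zfhx2 differed by -2.68 and -2.68.

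Some large shared changes were nearly equal, and these were picked for the smallest difference, so no test applies. Mfsd2a, a lipid transporter gene, had 6.22, 5.98 and 5.15 CPM in Control, 18.4, 17.7 and 16.3 CPM with Cu_TCPP and 20.3, 11.9 and 20.3 CPM with Au_TCPP. Enoph1, of the methionine salvage pathway, had 14.3, 15.6 and 13.9 CPM in Control, 32, 35.4 and 33.1 CPM with Cu_TCPP and 34.8, 32.5 and 36.9 CPM with Au_TCPP, and the ribosome assembly gene Pno1 had 30.6, 28.5 and 28.8 CPM in Control, 66.2, 61.2 and 58.1 CPM with Cu_TCPP and 57.4, 65.9 and 59.2 CPM with Au_TCPP. Polr3g, a subunit of RNA polymerase III, had mean levels of 16.7 ± 1.01, 37.3 ± 2.1 and 37.99 ± 1.92 CPM (SD, n = 3). Tigar, a fructose bisphosphatase that favours NADPH production, had 8.66, 7.44 and 10.2 CPM in Control, 18.01, 19.4 and 18.9 CPM with Cu_TCPP and 19.4, 14.5 and 22.9 CPM with Au_TCPP. On the lower side, Arhgef19, a guanine nucleotide exchange factor, had 19.3, 22.6 and 22.7 CPM in Control, 6.4, 8.696 and 6.94 CPM with Cu_TCPP and 7.91, 7.27 and 6.86 CPM with Au_TCPP, and Slc2a9, a urate and hexose transporter gene, had 16.04, 18.7 and 19.8 CPM in Control, 6.29, 8.17 and 7.503 CPM with Cu_TCPP and 8.803, 4.36 and 8.35 CPM with Au_TCPP. Chd5, Nr3c2 and Gstt3 had mean effects of -1.09, -1.14 and -1.32. The differences between materials in the genes of this paragraph lay between -0.03 and 0.05 log2 units, and their standard errors went up to 0.34 in Nr3c2.

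**Figure D5:**
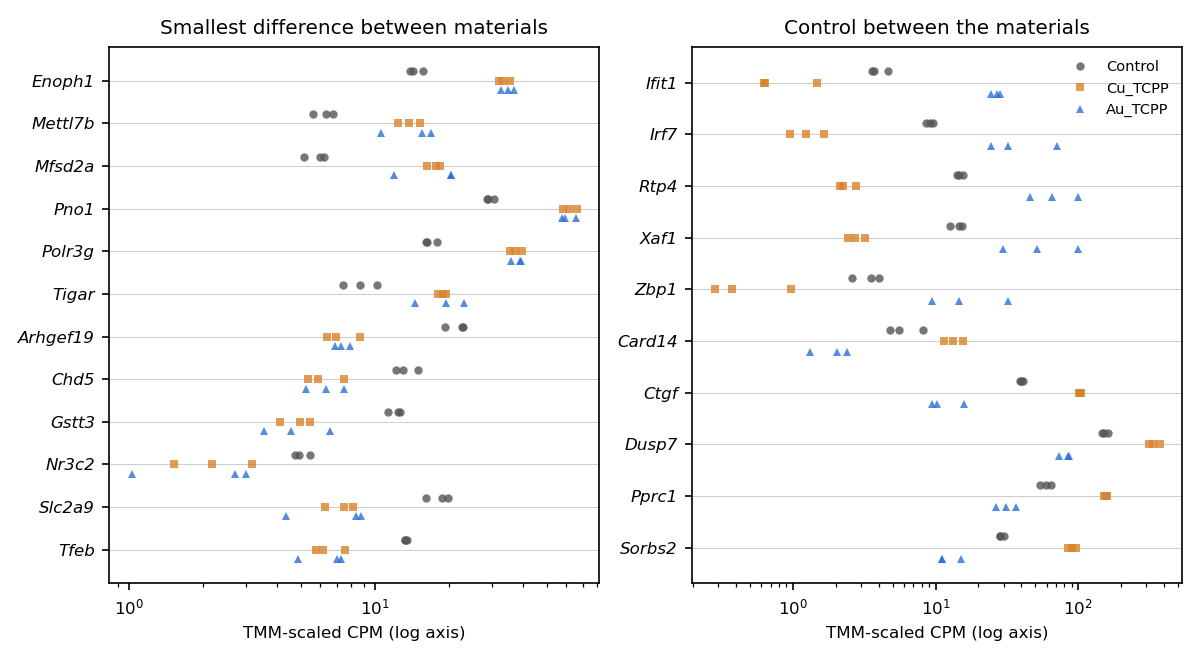
Scaled CPM (x axis, log scale) per library for 12 genes with a large mean effect and the smallest difference between materials (left) and 10 genes whose Control libraries lie between the materials (right); symbols as in the plot of the largest changes. On the left the orange and blue points overlap on 1 side of the grey ones; on the right the grey points separate them.

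The mean effect also hides opposite responses. In 844 genes (6.07%) every Au_TCPP library lay above and every Cu_TCPP library below Control, and in 1075 (7.73%) the reverse held. Their median lengths were 3122 and 5860 nt. Interferon-stimulated effectors led the first class, with 22 of 30 tested genes; only 1 of the 30, Isg20, was higher in all 6 treated libraries, at 53.3 ± 2.87, 69.2 ± 8.26 and 125 ± 17.5 CPM (SD, n = 3). Ifit1, which binds viral RNA, had 4.66, 3.56 and 3.72 CPM in Control, 0.623, 0.636 and 1.47 CPM with Cu_TCPP and 28.3, 24.5 and 26.95 CPM with Au_TCPP, so that the mean effect was 0.30 and was not called (edgeR adjusted p = 0.22) despite a difference of 4.87 log2 units between the materials. Irf7, which amplifies interferon production, had 9.21, 9.54 and 8.54 CPM in Control, 1.64, 0.954 and 1.24 CPM with Cu_TCPP and 32.4, 71.5 and 24.5 CPM with Au_TCPP. Rtp4 had 14.6, 15.5 and 14.1 CPM in Control, 2.78, 2.23 and 2.14 CPM with Cu_TCPP and 65.8, 100.2 and 45.6 CPM with Au_TCPP, and Xaf1 and Zbp1 had mean effects of -0.13 and -0.07 with differences of 4.44 and 5.12. In all but Ifit1 of these 5 genes Au_TCPP replicate 2 was the highest library; without it the list's calls in the mean effect went from 5 higher and 4 lower to 5 and 16. Of 12 tested interferon-inducible GTPase genes, 0 were higher and 0 lower in all 6 treated libraries, and 5 had Au_TCPP above and Cu_TCPP below Control. Among these GTPase genes, Gbp2 had 38.3, 41.4 and 40.7 CPM in Control, 4.98, 5.46 and 6.32 CPM with Cu_TCPP and 81.9, 256 and 50.8 CPM with Au_TCPP, again with Au_TCPP replicate 2 highest. Of the reverse class, Ctgf, a YAP target and matricellular protein, had 40.8, 38.9 and 39.6 CPM in Control, 101, 103 and 105 CPM with Cu_TCPP and 10.2, 15.9 and 9.46 CPM with Au_TCPP. Dusp7 had 153, 147 and 162 CPM in Control, 312, 373 and 337 CPM with Cu_TCPP and 86.1, 73.6 and 84.9 CPM with Au_TCPP, Sorbs2 had 30.03, 28.4 and 28.4 CPM in Control, 96.9, 85.5 and 90.7 CPM with Cu_TCPP and 11.1, 14.98 and 11.1 CPM with Au_TCPP, and Pprc1, a regulator of mitochondrial biogenesis, had 64.4, 59.6 and 54.1 CPM in Control, 160.0, 152 and 157 CPM with Cu_TCPP and 26.5, 36.7 and 31.3 CPM with Au_TCPP. Card14 had 8.22, 5.55 and 4.82 CPM in Control, 13.2, 11.5 and 15.5 CPM with Cu_TCPP and 2.39, 1.31 and 2.05 CPM with Au_TCPP. In each the 3 groups were disjoint; of these 5 genes edgeR called only Pprc1 in the mean effect (log2 0.24, adjusted p = 0.036).

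In the 300 bases around the start, from 250 before to 50 after, over both strands, the aryl hydrocarbon receptor core TNGCGTG was held by 9.68% of 1560 higher, 8.34% of 1715 lower and 8.45% of all 9632 promoters. The corresponding shares were 6.79%, 5.42% and 6.97% for the interferon response letters GAAANNGAA, 17.1%, 13.6% and 14.9% for TGACNNNGC, and 59.4%, 62.6% and 59.7% for TGCNCNC. They were 11.2%, 9.97% and 10.4% for the E-box CACGTG, 5.0%, 5.48% and 5.1% for TGANTCA, 10.8%, 13.6% and 12.0% for the TEAD letters GGAATG and 3.08%, 2.04% and 2.91% for AGAANNTTC. A match is a description of letters and not a bound site.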

How the data were processed

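In all, 9 RNA-seq libraries of 4T1 cells, 3 per group, were compared 24 h after addition of material or medium. The deposited table gave read counts per gene, and FPKM values that the authors had scaled by gene length and depth. The deposited group means, log2 fold changes and p-values of the authors' own comparisons were not used for any result. Bowtie 0.12.9, Cufflinks 2.1.1, HTSeq and mm10 are named per the submitters' processing notes, without role or order; no source used here says if reads were counted by strand, so antisense and overlapping genes cannot be told apart.

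Counts were fitted with edgeR 4.0.16 in R 4.3.3: genes filtered by group, TMM factors, robust quasi-likelihood fits over all 9 libraries, Benjamini-Hochberg adjustment over 13915 genes, threshold 0.05. The mean effect is the average of both log2 fold changes against Control. Alternatives used DESeq2 1.42.0 and limma 3.58.1, on log2 (FPKM + pseudocount). The coefficient of variation between replicates, as edgeR fitted it, was 10.6%. Genes were named as the largest mean effects, the most alike, the most different and the most opposed between materials (each with at least 5 CPM), up to 4 members per list, 10 preset genes and 2 genes on each side of the condition's edge. The gene set, the lists and the named genes were chosen with earlier results of these data known. Some genes that this choice includes are not reported here.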

Additional observations from a re-analysis of the deposited data

Results flagged for a closer look

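The following results were picked out because the effects of the materials against the same Control differed, by a test of Au_TCPP against Cu_TCPP in edgeR adjusted over all tested genes. Among genes higher in all 6 treated libraries, 1179 were called higher and 123 lower in Au_TCPP, and among genes lower in all 6, 218 were called higher and 1050 lower. Over all tested genes 34.6% were called higher and 31.3% lower.

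Of the shared higher genes, the log2 ratio of Au_TCPP to Cu_TCPP was 7.66 for Hspa1b, 5.75 for Hmox1, 5.19 for Dnajb1, 4.77 for Gadd45g, 4.71 for Hsph1 and 4.39 for Nppb. Of the shared lower genes it was 2.86 for Asb2, -2.92 for Espl1, -2.69 for Tbc1d16, -2.68 for Apc2 and -2.68 for Zfhx2. Where Control lay between the materials, it was 4.87 for Ifit1, 5.06 for Irf7, 4.89 for Rtp4, 4.44 for Xaf1 and 5.12 for Zbp1, and -3.11 for Ctgf, -2.06 for Dusp7, -2.87 for Sorbs2, -2.31 for Pprc1 and -2.80 for Card14. These genes were named for the size or opposition of their effects, on the same libraries, so the calls add no support.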

How the results depend on the processing

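The mean effect was called for 8194 genes, and for 6996 to 9252 when 1 library was left out; RLE factors, both filters, DESeq2 and limma kept the counts within 1.5 times. With library totals alone 2224 genes were called higher, 1178 were higher in all 6 treated libraries, 515 had Au_TCPP above and Cu_TCPP below Control, and 544 higher and 1889 lower genes were farther from Control with Au_TCPP. Treating the 6 libraries as 1 group, which puts the difference between materials into the error, left 1843 calls, 850 higher and 993 lower. A required log2 change of 1 or more left 1698, 593 higher and 1105 lower. Offsets for gene length were chosen after seeing the data.

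Replicate numbers did not pair the samples: same-number correlations of deviations ran from -0.086 to 0.33. With the number as a replicate block 8108 genes were called, 3840 higher and 4268 lower.

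Mean log2 values that changed sign, none of them called in the main analysis, came from genes with opposite or small responses, and the cause was not tested. With library totals they were -0.12 for Dusp7, -0.05 for Lck and -0.01 for Sorbs2. With limma on log2(FPKM + 1) they were 0.03 for Card14, 0.19 for Irf7, 0.08 for Rtp4, 0.16 for Xaf1 and 0.41 for Zbp1, and with 0.1 added 0.05 for Zbp1. With the 6 libraries as 1 group they were 0.32 for Card14, 0.42 for Cd68, 0.53 for Ctgf, 0.75 for Gbp2, 1.27 for Irf7, 1.30 for Rtp4, 1.15 for Xaf1 and 1.51 for Zbp1. With 1 library left out, Cd68 ran from -0.13 to 0.01, Lck from -0.01 to 0.31, Xaf1 from -0.42 to 0.02 and Zbp1 from -0.43 to 0.08. Over all named genes and settings 3685 values kept direction and call, 81 lost the call, 25 gained it and 25 changed sign. Low Control counts limit Prdm1 and Serpinb2.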

Other observations

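Some gene families outside the lists also moved together; they were chosen after their values were seen and have no test as families. Proteasome subunits, which degrade ubiquitin-tagged proteins, were higher in all 6 treated libraries for 32 of 43 tested genes and lower for 0, with a median mean effect of 0.72 log2 units, 0.35 with Cu_TCPP and 1.19 with Au_TCPP. The cytosolic chaperonin, which folds actin and tubulin, had 7 of 8 subunits higher and a median of 0.65. Mitochondrial ribosomal proteins had 35 of 77 genes higher and 0 lower, and translation initiation factors 25 of 52 higher and 2 lower. Over all tested genes the shares were 14.9% higher and 16.4% lower.

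Plexins and semaphorins, receptors and ligands of cell guidance, had 11 of 21 genes lower and 1 higher, with a median of -0.73. ABC transporters had 9 of 19 lower and 2 higher, and genes of the Notch and Wnt pathways 6 of 17 lower and 1 higher. Median gene length was 2800 nt for the proteasome, 2255 nt for mitochondrial ribosomal proteins, 7301 nt for plexins and semaphorins and 6752 nt for ABC transporters. It was 3910 nt for the chaperonin, 4709 nt for translation initiation factors and 4532 nt for the Notch and Wnt genes, against 3861 nt over all tested genes. The part of length in these counts was not tested.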
